A study of Mus musculus with 6 samples.

Results

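The axon guidance and Kirrel adhesion genes are the protein-coding genes whose mouse symbols belong to the semaphorins of classes 3 to 7, the plexins, neuropilins 1 and 2, the Slit and Robo families, the ephrins and Eph receptors, the netrins with their Dcc and Unc5 receptors, and the Kirrel family. Membership was set by gene symbol, the families having been picked with earlier results of these data known, and the rule found 73 genes among the 38561 gene identifiers of the count table. Phosphorylated S6, a ribosomal protein, was precipitated from lysates of vomeronasal organs of male CD-1 mice, an outbred strain, and the RNA that came with it was sequenced. S6 phosphorylation increases in recently active neurons, so such an RNA pool is weighted towards active cells. There were 3 libraries labelled control exposure and 3 labelled pup exposure. The labels do not say what the control exposure was, how long either exposure lasted, how old the mice were, or whether each library came from a separate animal. The p-values therefore rest on how much these particular libraries varied, and that variation may be technical in part or whole. Libraries of unprecipitated RNA were not used here, so a level is that of the precipitated pool, and fewer cells of a type and less RNA per cell cannot be told apart.

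Growing axons read these molecules as cues. Secreted and membrane semaphorins signal through plexins, with neuropilins as co-receptors for the secreted class 3 members, and Slit proteins repel axons that carry Robo receptors. Ephrins and Eph receptors signal on contact between cells, in both directions. In the vomeronasal system, apical sensory neurons carry Nrp2 and basal neurons carry Robo2, and the corresponding axons end in the anterior and posterior accessory olfactory bulb. Kirrel proteins are immunoglobulin-superfamily adhesion molecules that bind copies of themselves on neighbouring axons. Kirrel2 and Kirrel3 mark different glomeruli, and their levels in olfactory neurons are known to depend on activity. Netrins attract axons through Dcc and repel them through Unc5 receptors.

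Library totals ran from 10590716 to 11240065 counts in the control exposure and from 18199476 to 20871266 in the pup exposure, so the pup libraries were the deeper ones. The scaling factors of the trimmed mean of M values (TMM) set control replicate 3 apart at 0.605 and pup replicate 2 at 1.39. In control replicate 3 the 9 nasal gland marker genes summed to 907000 CPM (counts scaled to a common library size with the TMM factors), against 190500 to 459800 in the other libraries. With a factor of 0.605 that sum is not a share of the library's counts. Obp2a, the largest of the 9, held 2752139 of its 10590716 counts. The guidance and Kirrel genes held between 6264 and 47508 counts per library, or 0.0592% to 0.233% of the total, and between 59 and 68 of the 73 had at least 1 count. Of the 73 genes, 57 passed the filter on low counts and entered the test. The other 16 had at most 97 counts over all libraries, and 5 of them had fewer than 10. Robo3, a Robo receptor of commissural axons, had no count in any library, and Dcc had 0, 1 and 0 counts in the control libraries and 1, 0 and 0 in the pup libraries. Plxna4, a receptor for class 3 semaphorins, stayed under the filter with at most 0.780 CPM.

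No guidance or Kirrel gene passed the test between the exposures. By edgeR's quasi-likelihood test with Benjamini-Hochberg adjustment over 15498 genes, 0 of 57 genes were higher and 0 lower, where 0.0% of all genes were called higher and 0.0% lower. The smallest adjusted p was 0.375, for Sema4b, against 0.0938 over all genes (edgeR). At an unadjusted p under 0.05 in the same test, 9 of the 57 genes (15.8%) were higher after pup exposure, beside 6.31% of all genes tested. At that level 2 of the 57 (3.51%) were lower, beside 4.67% of all genes. Both shares changed with exon length among tested protein-coding genes. The share higher was 0.726% up to 2000 bases, 11.2% for 6000 to 8000 and 13.9% above 12000, and the share lower was 10.6%, 2.35% and 1.32%. DESeq2 called 1 of the 43 members to which it gave an adjusted p higher, Sema4b (2.33%, beside 0.406% of 12301 genes), and 0 lower (beside 0.626%). In limma-voom 0 of 57 were called in either direction, beside 0.00645% of all genes higher and 0.0452% lower. Without the filter, edgeR called 0 of 72 members higher (beside 0.255% of 23900 genes) and 1 lower, Plxnb3 (1.39%, beside 0.247%). The groups did not overlap for 12 genes that were higher after pup exposure (21.1%, beside 10.1% of all genes) and for 1 that was lower (1.75%, beside 9.6%).

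The fitted log2 fold changes of pup over control exposure leaned to positive values across the set. The sign was positive in 45 of 57 genes and negative in 12, with a median of 0.53 on the log2 scale and a range from -2.95 to 2.33. Over all 15498 genes the median was 0.03, with 7976 positive and 7522 negative. Ligands and receptors had similar medians, 0.49 for 27 tested ligands (20 positive) and 0.53 for 27 tested receptors (22 positive). By role, the median was highest for the Robo receptors at 1.31 (3 genes) and the EphA receptors at 0.83 (7 genes). It was lowest for the netrins, where only Ntn1 was tested, at -0.43.

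**Figure D1:**
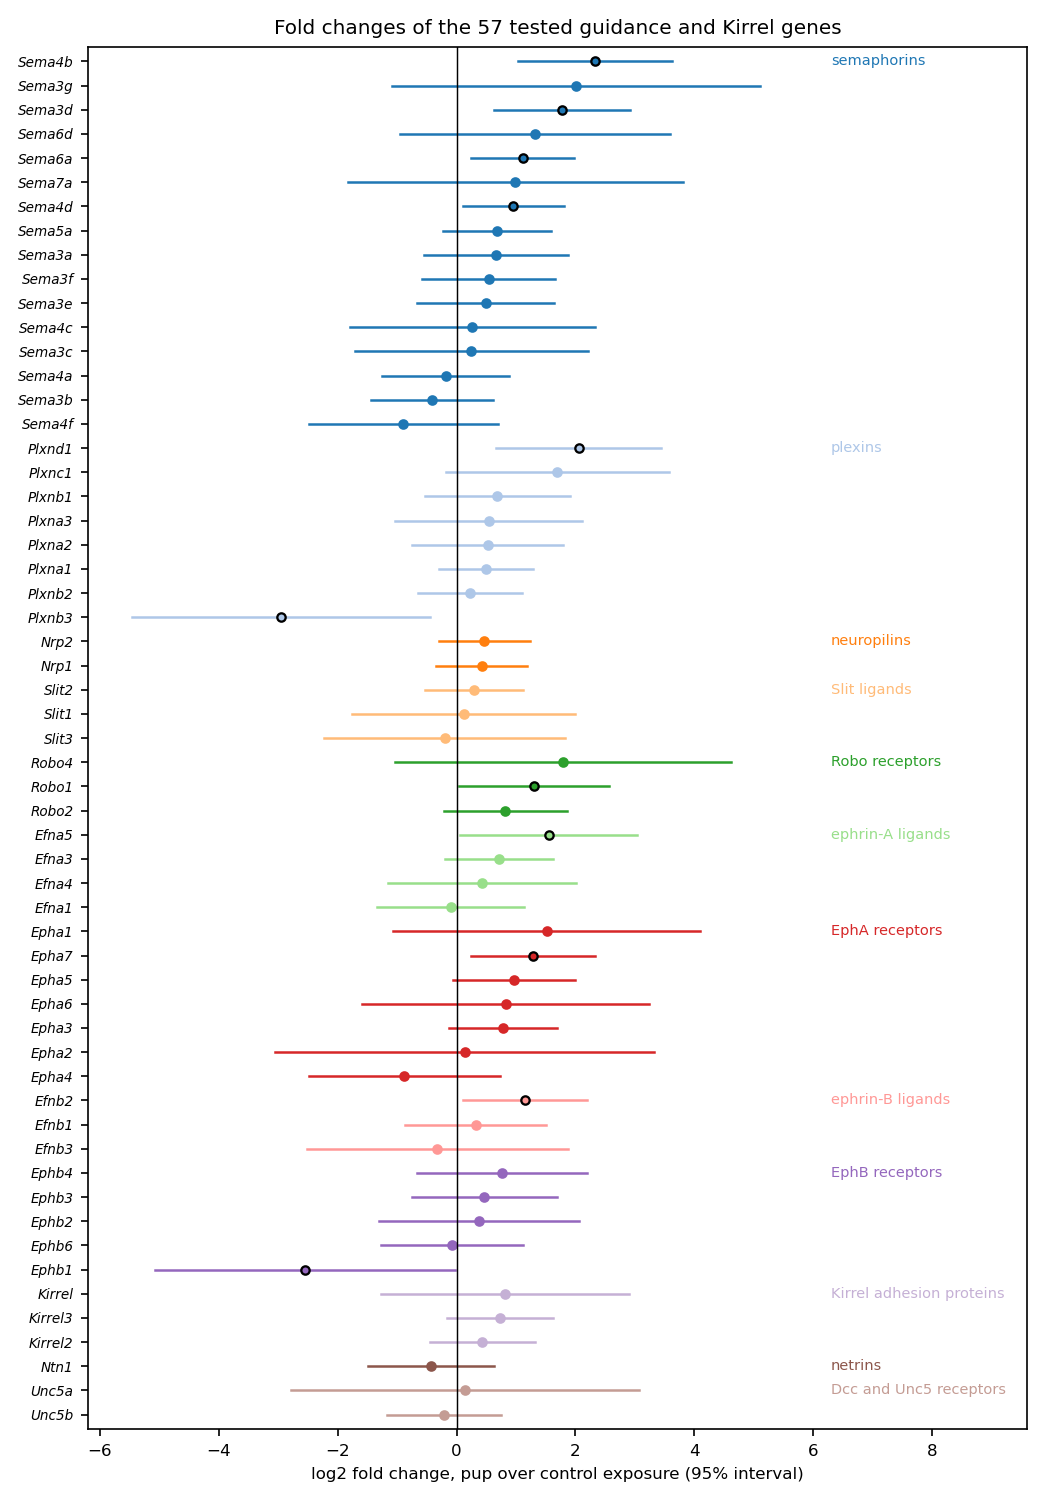
Fitted log2 fold change of pup over control exposure for each tested guidance and Kirrel gene (x axis), ordered by role, with 95% confidence intervals from edgeR and a black ring at an unadjusted p under 0.05. Most of the 57 points lie to the right of 0 and most intervals cross it; Sema4b has the highest estimate at 2.33 and Plxnb3 the lowest at -2.95.

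Transcript length moved with the exposure in these libraries, and the guidance genes are long. Tested members had a median of 6641 exon bases, against 4476 for all 13717 tested protein-coding genes. Among all tested protein-coding genes, the median log2 fold change went from -0.52 for the 1790 genes with at most 2000 exon bases to 0.51 for the 832 genes above 12000. In between it was -0.20 for 2000 to 4000 bases, 0.20 for 4000 to 6000, 0.36 for 6000 to 8000 and 0.45 for 8000 to 12000. The members did not follow a strict order, with medians of 0.16 for 2 genes up to 2000 bases, 0.44 for 7 genes of 2000 to 4000 and 0.40 for 14 of 4000 to 6000. For longer genes they were 0.36 for 14 of 6000 to 8000, 0.73 for 12 of 8000 to 12000 and 0.68 for 8 above 12000. Within each library, the log2 deviation of long genes (above 8000 bases) minus that of short genes (at most 2000) was -0.27, -0.26 and -0.91 in the control libraries and 0.21, 1.32 and -0.11 in the pup libraries. The groups did not overlap in this measure, and pup replicate 2 was the highest.

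With the length trend removed from each library, the median of the 57 genes was 0.21 and 40 of them were positive, while that of all genes was -0.004. In that setting, chosen after seeing the data, 4 genes (7.02%) were higher at an unadjusted p under 0.05, namely Sema4b, Plxnd1, Sema3d and Efna3, beside 3.92% of all genes. Another 2 genes (3.51%), Plxnb3 and Ephb1, were lower at that level, beside 4.72% of all genes. The log2 fold changes of Nrp1, Nrp2 and Plxna1 were then 0.04, 0.03 and 0.07, and 7 of the 57 genes changed sign.

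**Figure D2:**
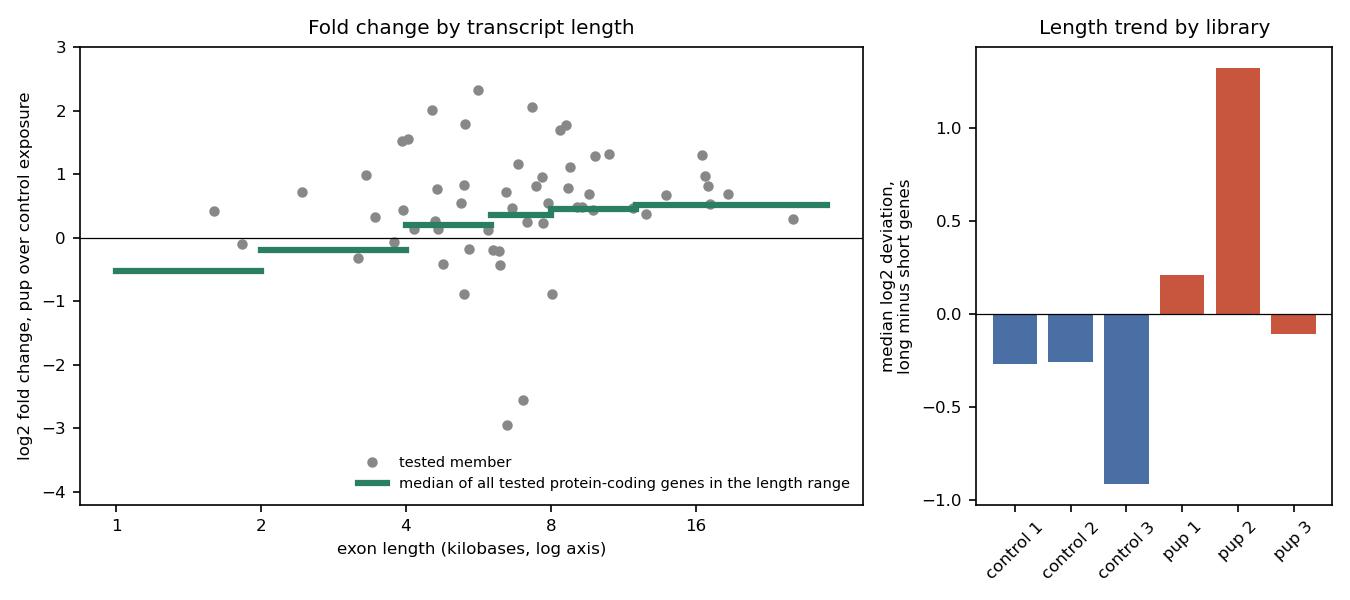
Left, log2 fold change of pup over control exposure against exon length in kilobases on a log axis, with the 57 tested genes as grey points and the median of all tested protein-coding genes per length range as green bars; right, the long-minus-short log2 deviation of each library. The green bars go from -0.52 to 0.51 with length, and the 3 pup libraries (red) lie above the 3 control libraries (blue).

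Semaphorins held the genes with the smallest p. Of 20, 16 were tested, 13 with a positive and 3 with a negative log2 fold change, with a median of 0.68. Sema4b, a membrane semaphorin of class 4 (ENSMUSG00000030539, GRCm38 chr7:80186841-80226527, plus strand), had 1.096, 2.42 and 1.87 CPM in the control libraries and 6.53, 11.7 and 8.84 in the pup libraries. Every pup library was above every control library, and the means were 1.80 ± 0.66 and 9.02 ± 2.59 CPM (SD, n = 3 each). The fitted log2 fold change was 2.33 (SE 0.59, 95% interval 1.03 to 3.63) with an adjusted p of 0.375 in edgeR. DESeq2 gave 2.31 with an adjusted p of 0.0218, and over the 17 alternatives the adjusted p ran from 0.0218 to 0.831.

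Sema3d, a secreted class 3 semaphorin (chr5:12383385-12588948), had 2.58, 3.49 and 4.52 CPM in the control libraries and 15.4, 13.9 and 6.66 in the pup libraries. The groups did not overlap, and pup replicate 3 was nearest to the controls (log2 fold change 1.77, SE 0.53, edgeR adjusted p = 0.395). Sema6a, a membrane semaphorin that binds plexin A receptors, had 12.1, 10.6 and 16.1 CPM against 28.0, 34.7 and 20.8. The groups were again apart, with a log2 fold change of 1.11 (SE 0.40) that was 0.70 with the length trend removed. Sema4d, the ligand of Plxnb1, had 23.0, 25.9 and 30.4 CPM in the controls and 29.8, 68.0 and 56.0 after pup exposure. Its groups overlapped because pup replicate 1 lay below control replicate 3, and the log2 fold change was 0.96 (SE 0.39, edgeR adjusted p = 0.439).

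Sema5a, a transmembrane semaphorin with thrombospondin repeats, was also higher in every pup library, with 12.2 ± 2.33 against 19.5 ± 6.18 CPM (SD, n = 3 each). Sema3g was too, but at no more than 1.45 CPM in any library. Sema3a and Sema3f, the secreted ligands known for binding through Nrp1 and Nrp2, overlapped between the groups. Sema3a had 10.3, 5.55 and 15.6 CPM against 6.69, 25.7 and 17.4, and its interval on the log2 scale ran from -0.54 to 1.88. Sema3f had 3.29, 7.61 and 11.5 CPM against 9.69, 12.2 and 10.5, where the control libraries were the spread ones. Sema4f, a class 4 semaphorin, was the only tested member lower in every pup library, at 3.13, 3.58 and 4.06 CPM in the controls and 1.12, 2.62 and 2.02 after pup exposure. Its log2 fold change of -0.89 had an interval from -2.48 to 0.69. Sema3b had a log2 fold change of -0.41 and Sema4a of -0.18.

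The sequence upstream of 3 members is shown because Sema4b had the smallest p of the set, while Sema4d and Efna3, picked after their values were seen, carry a match to a motif of factors induced by neuronal activity. Each run gives the 250 bases before 1 RefSeq transcription start in the GRCm38.p6 table, 5′ to 3′ on the gene's strand. Only the first entry of each gene is shown, out of 2 for Sema4b, 3 for Sema4d and 2 for Efna3. Both strands were searched for the CRE TGACGTCA, the AP-1 site TGANTCA and the Egr1 site GCGTGGGCG, and capitals mark a match. Sema4b lies at chr7:80186620-80186869 on the plus strand and held none of the 3 motifs in this window. Sema4d lies at chr13:51748811-51749060 on the minus strand with an AP-1 match whose first base is 239 bases before the start. That window is inside the annotated gene (chr13:51685529-51793747), so the start shown is an internal one. Efna3 lies at chr3:89322940-89323189 on the minus strand with an Egr1 match on the reverse strand, 110 bases before the start.
Sema4b: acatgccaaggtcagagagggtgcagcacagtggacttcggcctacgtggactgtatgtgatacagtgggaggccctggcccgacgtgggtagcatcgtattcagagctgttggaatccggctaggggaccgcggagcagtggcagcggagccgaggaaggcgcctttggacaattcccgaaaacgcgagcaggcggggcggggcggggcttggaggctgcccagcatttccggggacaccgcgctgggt
Sema4d: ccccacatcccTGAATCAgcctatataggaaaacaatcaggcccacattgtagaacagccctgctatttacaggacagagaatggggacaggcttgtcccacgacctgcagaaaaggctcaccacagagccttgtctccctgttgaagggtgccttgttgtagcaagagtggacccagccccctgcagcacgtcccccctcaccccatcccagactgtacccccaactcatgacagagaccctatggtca
Efna3: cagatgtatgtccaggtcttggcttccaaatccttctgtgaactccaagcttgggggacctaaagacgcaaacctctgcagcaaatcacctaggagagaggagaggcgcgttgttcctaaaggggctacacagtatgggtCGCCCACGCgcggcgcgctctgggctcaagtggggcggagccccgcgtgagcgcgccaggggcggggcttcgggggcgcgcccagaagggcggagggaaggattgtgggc

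Of the 73 members, 62 had a promoter in the table. The CRE was found in 1 of them (1.61%, Epha2), the AP-1 site in 3 (4.84%, Sema4c, Sema4d and Sema6b) and the Egr1 site in 2 (3.23%, Efna3 and Plxna2). Over 16194 protein-coding genes of the table the shares were 2.3%, 7.14% and 0.895%. A gene was counted if any of its entries held a match, and a match describes the letters in these windows only.

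Of 9 plexins, the semaphorin receptors, 8 were tested, 7 with a positive log2 fold change and a median of 0.53. Plxnd1, the receptor of Sema3e (chr6:115954811-115995005, minus strand), had 4.93, 3.31 and 0.624 CPM in the control libraries and 14.0, 13.7 and 10.1 in the pup libraries. The lowest pup library was above the highest control library, with a log2 fold change of 2.06 (SE 0.64, 95% interval 0.67 to 3.45) and an edgeR adjusted p of 0.405. Its ligand gene Sema3e had 8.23 ± 3.43 and 11.5 ± 5.73 CPM (SD, n = 3 each), with overlapping groups. Plxnd1 is also a receptor of blood vessel endothelium. Of 12 endothelial markers, 8 had positive and 4 negative log2 fold changes, with a median of 0.40 and a range from -2.34 (S1pr1) to 2.49 (Tek). Among the defining genes, Pecam1 had 2.23 ± 1.17 and 3.17 ± 0.34 CPM, Kdr 3.08 ± 1.73 and 3.24 ± 1.09, Cdh5 0.317 ± 0.473 and 1.24 ± 0.464, and Flt1 7.83 ± 4.14 and 15.3 ± 7.88 (SD, n = 3 each). Egfl7 had 9.49 ± 5.05 and 4.96 ± 1.15 CPM, and Tek was the only one of the 12 with every pup library above every control library. The list summed to 111 to 118 CPM in the controls and 61.3 to 74.5 after pup exposure, of which S1pr1 held 68.3 ± 4.32 and 13.5 ± 2.98. The other 11 summed to 40.3 to 50.2 and 44.4 to 63.1 CPM, all 12 were detected in at least 1 library, and their part in the Plxnd1 value was not tested.

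Plxnb3 (chrX:73757090-73772514) went the other way, at 16.6, 7.25 and 1.40 CPM in the control libraries and 0, 1.56 and 1.68 after pup exposure. The groups overlapped, since control replicate 3 lay among the pup libraries. Its log2 fold change was -2.95 (SE 1.15) with an edgeR adjusted p of 0.424, and -2.92 with an adjusted p of 0.0389 when edgeR was run without the filter. Leaving out control replicate 1 took it to -2.00. Plxnc1, a receptor for Sema7a, had a log2 fold change of 1.70 with an interval from -0.18 to 3.58.

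The plexins with the highest counts differed less between the exposures. Plxnb2 had 105, 170 and 172 CPM in the control libraries and 119, 229 and 177 in the pup libraries, a log2 fold change of 0.23 (95% interval -0.64 to 1.103). Plxna1, a partner of the neuropilins, had 95.6, 97.1 and 89.6 against 124, 172 and 99.7 CPM. Its groups did not overlap, with the lowest pup library close to the highest control library, and the log2 fold change was 0.49 (SE 0.36). Of its exon bases, 10.7% are overlapped by the gene Gm26811, so some of its reads may be uncertain. Plxnb1, the Sema4d receptor, ranged from 13.6 to 93.2 CPM within the pup exposure alone, and Plxna3 from 2.41 to 25.6. In both genes pup replicate 1 was the lowest of the 6 libraries and pup replicate 2 the highest.

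The neuropilins had log2 fold changes close to one another. Nrp2, the co-receptor of apical vomeronasal axons, had 44.2, 54.8 and 38.2 CPM in the control libraries and 67.7, 74.4 and 48.1 in the pup libraries. The groups overlapped and the log2 fold change was 0.47 (SE 0.35, edgeR adjusted p = 0.615). Nrp1 had 23.5, 34.2 and 38.8 CPM against 45.5, 43.7 and 40.5, with every pup library above every control library by a small margin. This gave a log2 fold change of 0.43 (SE 0.35, edgeR adjusted p = 0.645). The ratio of Nrp2 to Nrp1, taken per kilobase of exon, was 1.56, 1.32 and 0.81 in the controls and 1.23, 1.41 and 0.98 after pup exposure, with no separation of the groups.

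Robo receptors had the highest role median, yet over 3 tested genes. Robo1 (chr16:72308306-73046095) had 4.77, 21.3 and 27.1 CPM in the control libraries and 29.5, 68.0 and 33.3 in the pup libraries. The groups did not overlap, with control replicate 1 far below and pup replicate 2 far above the rest. The log2 fold change was 1.31 (SE 0.58, edgeR adjusted p = 0.447). It was 0.86 without control replicate 1, 0.86 without pup replicate 2 and 0.79 with the length trend removed. Robo2, the receptor of basal vomeronasal axons, had 7.28, 18.6 and 17.6 CPM against 16.97, 36.8 and 22.8, with overlapping groups and a log2 fold change of 0.82 (SE 0.47). Robo4, a receptor of endothelial cells, had at most 3.32 CPM and an interval from -1.03 to 4.62.

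The Slit ligands differed little on average. Slit2 had 15.4, 22.7 and 28.4 CPM in the controls and 25.6, 30.7 and 25.2 after pup exposure, a log2 fold change of 0.30 with an interval from -0.53 to 1.13. Slit1 and Slit3 stayed at or below 8.31 CPM, with log2 fold changes of 0.12 and -0.20 and, for both, 0.313 CPM in control replicate 1. The ratio of Nrp2 to Robo2 per kilobase, which sets the apical against the basal receptor, was 8.71, 4.22 and 3.11 in the controls and 5.72, 2.90 and 3.02 after pup exposure. The groups overlapped, and the range within the controls alone was wider than the gap between them. The ratio of the G protein genes Gnai2 (apical) to Gnao1 (basal) overlapped too, at 11.4, 6.09 and 9.01 against 11.8, 6.37 and 8.21. The apical marker list summed to 292 to 391 CPM in the controls and 316 to 619 after pup exposure, and the basal list to 722 to 802 and 591 to 679. Of 4 apical markers, 3 had positive and 1 negative log2 fold changes, from -0.10 (Pde4a) to 0.69 (Gnai2, at 432 CPM in pup replicate 1). Of 4 basal markers, 3 had negative and 1 positive values, from -0.39 (Tfap2e) to 0.58 (Gnao1). The groups overlapped for every gene of both lists, and Calr4 and Gng8 held the largest parts of the basal sum.

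**Figure D3:**
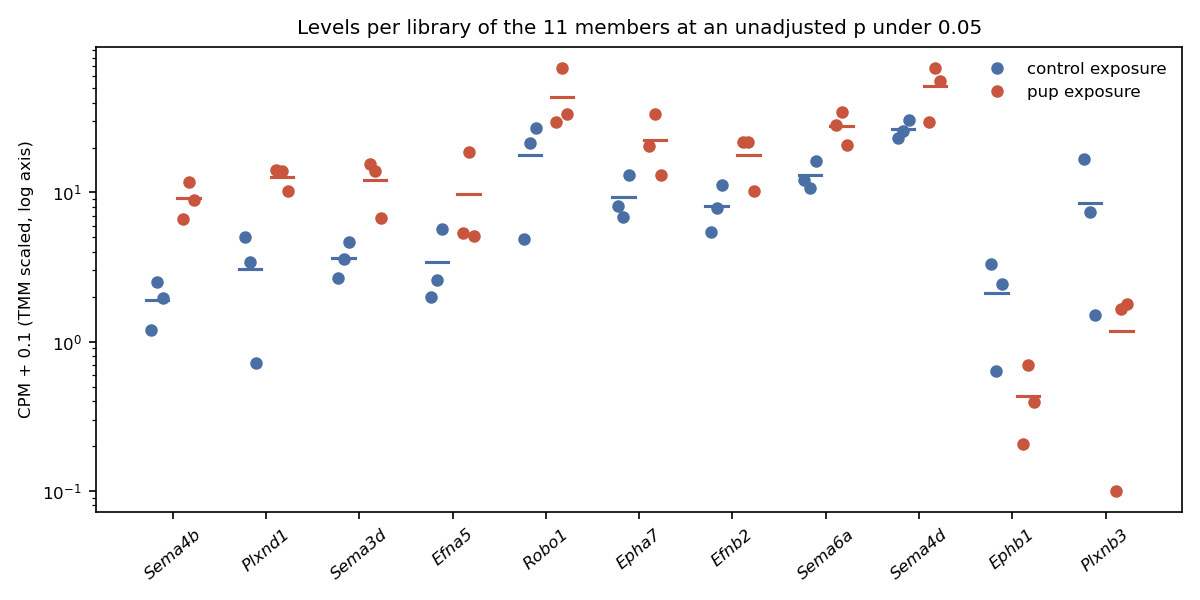
TMM-scaled CPM plus 0.1 (log axis) of the 11 guidance genes at an unadjusted p under 0.05, with 1 point for each of the 3 control (blue) and 3 pup exposure libraries (red) and a bar at each group's mean. Sema4b, Plxnd1, Sema3d, Sema6a and Robo1 have all pup points above all control points, Epha7 nearly touches, and Efna5, Efnb2, Sema4d, Ephb1 and Plxnb3 overlap.

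Among the 22 ephrins and Eph receptors, 19 were tested, with a median log2 fold change of 0.47 and 14 positive signs. Epha7 had 8.06, 6.71 and 12.95 CPM in the control libraries and 20.5, 33.6 and 12.98 in the pup libraries, so the groups were apart by the last digits only. Its log2 fold change was 1.28 (SE 0.48, edgeR adjusted p = 0.424), and 0.80 with the length trend removed. Epha5, the EphA receptor with the highest level, had 56.7, 107.9 and 131.5 CPM against 297.3, 171.8 and 107.8. The groups overlapped, with pup replicate 1 far above and pup replicate 3 within the controls (log2 fold change 0.96, 95% interval -0.06 to 1.99). Epha4 was lower on average, at 5.61 ± 1.25 against 3.03 ± 2.52 CPM (SD, n = 3 each), with an interval on the log2 scale from -2.49 to 0.73.

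Ephrin-A5 (Efna5) has a known role in sorting vomeronasal axons. It had 1.88, 2.51 and 5.62 CPM in the control libraries and 5.25, 18.5 and 5.04 in the pup libraries. Pup replicate 2 stood alone and the groups overlapped, with a log2 fold change of 1.55 (SE 0.68) that was 0.66 without that library. Efna3 had the highest level among the ephrins and 22.2, 22.3 and 9.36 CPM against 30.1, 27.5 and 31.3. Every pup library was above every control library, and control replicate 3 was the low one. Its log2 fold change was 0.72 (SE 0.42, edgeR adjusted p = 0.527), and 14.1% of its exon bases are overlapped by the gene Gm15998. Efna1 had a log2 fold change of -0.10.

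Of the B class, Efnb2 had 5.32, 7.79 and 11.1 CPM in the controls and 21.8, 21.6 and 10.2 after pup exposure. Pup replicate 3 fell within the controls, and the log2 fold change was 1.15 (SE 0.48, edgeR adjusted p = 0.444). Efnb1 had 10.6, 8.33 and 5.62 CPM against 18.4, 6.90 and 5.48, where pup replicate 1 alone was high. The receptor Ephb1 (chr9:101922128-102354693, minus strand) was at low level and lower on average, with 3.21, 0.537 and 2.34 CPM in the controls and 0.107, 0.601 and 0.296 after pup exposure. Control replicate 2 lay among the pup libraries, and the log2 fold change was -2.55 (SE 1.16, 95% interval -5.08 to -0.02, edgeR adjusted p = 0.454). Ephb2 had an interval from -1.31 to 2.05 and Ephb4, with the highest level of the EphB receptors per kilobase, one from -0.67 to 2.198.

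All 3 Kirrel genes were tested and none passed. Kirrel2 (chr7:30447534-30457690, minus strand), an adhesion gene of olfactory and vomeronasal axons, had 86.2, 98.8 and 64.6 CPM in the control libraries and 71.9, 166.8 and 99.0 in the pup libraries. Pup replicate 2 was high, pup replicate 1 lay within the controls, and the log2 fold change was 0.44 (SE 0.41, 95% interval -0.45 to 1.32, edgeR adjusted p = 0.688). Kirrel3 (chr9:34485894-35036716) had 8.92, 13.9 and 16.9 CPM against 26.3, 20.2 and 18.9. Each pup library was above each control library, with a log2 fold change of 0.73 (SE 0.41, 95% interval -0.17 to 1.62, edgeR adjusted p = 0.521) that was 0.46 with the length trend removed. Kirrel, the broadly expressed member also called Kirrel1, had 1.96, 1.34 and 0.936 CPM against 0.428, 3.25 and 3.85, with overlapping groups. The ratio of Kirrel2 to Kirrel3 per kilobase was 15.8, 11.7 and 6.28 in the controls and 4.49, 13.5 and 8.58 after pup exposure. It overlapped between the groups and was above 1 in all 6 libraries.

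Netrins and their receptors were mostly under the filter. Ntn1 was the only netrin tested, at 13.0, 14.4 and 11.4 CPM in the controls and 4.50, 14.5 and 9.87 after pup exposure, a log2 fold change of -0.43 (SE 0.49, 95% interval -1.49 to 0.64). Unc5b, a netrin receptor, had 31.1, 39.9 and 21.5 CPM against 14.6, 40.6 and 25.03, where pup replicate 1 was again the low one. The fitted value was -0.21 with an interval from -1.17 to 0.75.

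Compared per length, as CPM per kilobase of exon, a few genes held a large share of the set's level. The top 5 held 49.6% of the summed level, 31 of the 73 genes reached 1 CPM per kilobase and 3 reached 10. Kirrel2 had the highest level at 24.9 ± 9.27 CPM per kilobase (SD, n = 6), and Plxnb2 followed at 20.97 ± 5.81, below Kirrel2 in 5 of 6 libraries. Plxna1 had 12.5 ± 3.46 and was below Plxnb2 in all 6. Then came Efna3 at 9.77 ± 3.30, Epha5 at 8.69 ± 4.97 and Efna1 at 5.58 ± 2.67, each within the spread of its neighbour. Sema4d (5.06 ± 2.41), Nrp2 (4.61 ± 1.18), Unc5b (4.60 ± 1.66) and Plxnb1 (4.31 ± 2.91) did not differ beyond their spread, and Sema4d was above Nrp2 in 3 of 6 libraries. Nrp1 had 3.85 ± 0.82 and Kirrel3 2.71 ± 0.91, with Nrp1 the higher in all 6 libraries.

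**Figure D4:**
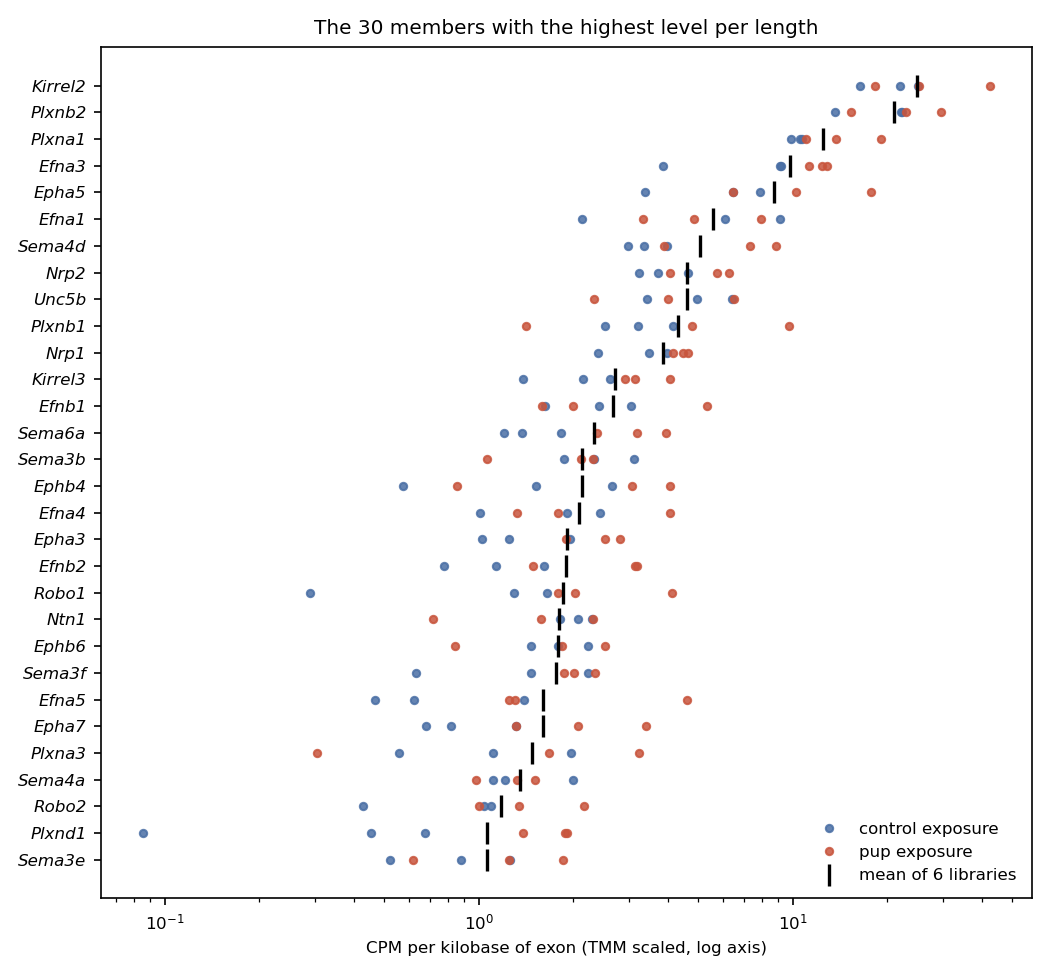
Level per length (TMM-scaled CPM per kilobase of exon, log axis) of the 30 highest guidance and Kirrel genes, with 1 point per library (control blue, pup red) and a bar at the mean over 6. Kirrel2 and Plxnb2 lead with means of 24.9 and 20.97, and the spread of neighbouring genes overlaps along most of the order.

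Genes that act downstream of the receptors were taken from a list. Of 44 listed guidance effectors, 42 were tested, 35 with a positive and 7 with a negative log2 fold change and a median of 0.53. These values were not corrected for exon length. Over all tested protein-coding genes the median went from -0.52 up to 2000 exon bases to 0.51 above 12000. The part of length in this list was not tested. None passed in edgeR, and at an unadjusted p under 0.05 there were 7 of 42 higher (beside 6.31% of all genes) and 2 lower (beside 4.67%). Gsk3b, a kinase of growth cone microtubule control, had 128 ± 4.89 CPM in the controls and 363 ± 159 after pup exposure (SD, n = 3 each), with a log2 fold change of 1.499 (SE 0.41). Dpysl2, the collapsin response mediator of semaphorin signalling, had 208 ± 69.8 and 680 ± 527 CPM, with a spread in the pup libraries nearly as large as their mean. Ablim1 had 34.6 ± 1.85 and 84.4 ± 29.0 CPM, with a log2 fold change of 1.29 (SE 0.37). Limk1, at low level, had 0.112 ± 0.0974 and 1.74 ± 0.949 CPM. Cfl1, the actin-severing protein cofilin, and Cdk5, a kinase in semaphorin signalling, were lower on average with log2 fold changes of -1.07 (SE 0.40) and -0.995 (SE 0.38).

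Of 39 further guidance and adhesion genes listed, 38 were in the table and 34 were tested, 28 with a positive sign and a median of 0.50. Exon length was not corrected for here either, and its part in these values was not tested. At an unadjusted p under 0.05 there were 4 of 34 higher (beside 6.31% of all genes) and 0 lower (beside 4.67%) in edgeR. Flrt1, a ligand of latrophilins and Unc5 receptors, had 472 ± 178 CPM in the controls and 1166 ± 481 after pup exposure (SD, n = 3 each). Rgmb, a ligand of neogenin, had a log2 fold change of 1.32, Adgrl3, a latrophilin, of 1.15 and Gpc1, a heparan sulphate proteoglycan that binds Slit, of 0.96.

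Marker sums for smooth muscle and pericytes, fibroblasts and cartilage, ensheathing glia and Schwann cells, and main olfactory neurons overlapped between the groups. The summed levels of 4 further marker lists are given beside these results. The mature vomeronasal neuron list, of which 8 of 9 genes were found in the table, summed to 1781 to 1905 CPM in the controls and 1641 to 1906 after pup exposure. Omp, the marker of mature olfactory neurons, held the largest share at 864 ± 84.3 and 758 ± 86.0 CPM (SD, n = 3 each). Of the 8 genes, 5 had positive and 3 negative log2 fold changes, from -0.38 (Gng8) to 1.07 (Ano2). The 9 immature neuron markers, of cells whose axons are still growing, summed to 739 to 767 CPM and 512 to 588, and every pup library was below every control library. Of that list 7 were tested, 5 with negative and 2 with positive log2 fold changes, from -1.22 for Gap43, the growth-associated protein of extending axons, to 0.43 for Dcx, a microtubule protein of migrating neurons. Gng8, which is also in the mature and basal lists, held the largest part of the sum at 331 ± 69.3 and 255 ± 88.7 CPM (SD, n = 3 each). The separation is therefore one of a sum in which Gng8 weighs most, and Gng8 itself overlapped between the groups. Taken singly, only Gap43 and Stmn2 of the immature list were lower in every pup library. Neurog1, a precursor gene, had means of at most 0.119 CPM in either group.

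The 7 sustentacular cell markers summed to 3881 to 4482 CPM in the controls and 1584 to 2320 after pup exposure, and the 8 macrophage markers to 98.3 to 116 and 58.9 to 76.9. In both sums every pup library was below every control library. Of 6 tested sustentacular markers, 5 had negative and 1 positive log2 fold changes, from -2.70 (Cyp2g1) to 0.34 (Sox2). Of the 8 macrophage markers, 6 had negative and 2 positive log2 fold changes, from -1.60 (Cd68) to 0.14 (Csf1r). Taken singly, only Cd68 and Aif1 of the macrophage list were lower in every pup library, and the groups overlapped for the others. Cbr2 held the largest part of the sustentacular sum, at 3025 ± 178 and 1235 ± 315 CPM, and Cd68 the largest part of the macrophage sum in the controls, at 37.9 ± 6.28 and 12.5 ± 3.02 (SD, n = 3 each). No gene of these 4 lists passed in edgeR, and the part of these cell types in the values above was not tested. The sums were not corrected for exon length. Over all tested protein-coding genes of at most 2000 exon bases, the median log2 fold change was -0.52. Of those, 10.6% were lower and 0.726% higher at an unadjusted p under 0.05 in edgeR. Cbr2, Cd68 and Gap43 are of that length, Stmn2 is longer, and the part of length in these sums was not tested.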

How the data were processed

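The authors deposited 1 table of raw read counts per Ensembl gene for 6 libraries. The build was GRCm38, per the submitters' processing notes. Which aligner, counter and strand setting made the counts is not given in the sources used here. Per the labels' protocols, cDNA was made with SMARTer kits and sheared.

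Names, exon lengths and coordinates came from GENCODE M21 (36723 of 38561 identifiers matched, 1838 did not). Counts were tested with edgeR 4.0.16 (glmQLFit, glmQLFTest, TMM, filterByExpr with a minimum count of 10 and total of 15), with Benjamini-Hochberg adjustment over all genes and a threshold of 0.05 (common biological coefficient of variation 0.535). CPM values are TMM-scaled. Intervals are 95%. The depth per library is in the report, and p-values cover 3 libraries a group. Scripts were tested on simulated data. Alternatives used DESeq2 1.42.0, limma 3.58.1, other scalings and filters, a replicate block, each library left out, and, chosen after seeing the data, thinning to equal totals and removal of a length trend (lowess, span 0.3).

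The members and lists were chosen with earlier results of these data known. Genes named are the 8 smallest p values in each direction, genes known from olfactory wiring, the highest level per role, genes whose sign or call changed with processing, and up to 4 per pathway list. Others named (Plxnb1, Plxnc1, Slit3, Efna1, Robo3, Sema3e, Sema3g, Sema5a, Robo4, Epha2, Sema4c, Sema6b, Plxna2, Cfl1, Cdk5 and the marker genes) were picked after their values were seen. Exons of 13 members overlap another gene by over 1% of bases (5 by over 10%), and 11 share over 1% of their 50-base words with other transcripts, so their counts are less certain. Within groups, library pairs differed by a chi-square per degree of freedom of 94.0 to 323, so no library was a copy.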

Additional observations from a re-analysis of the deposited data

How the results depend on the processing

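Over all 15498 genes of the main test, adjusted calls numbered 0 in each direction. Without the filter they numbered 61 higher (0.255%) and 59 lower (0.247%) of 23900 genes. DESeq2 gave 50 (0.406%) and 77 (0.626%) of 12301 genes. Over 15498 genes they were 1 and 7 in limma-voom, 1 and 11 with sample quality weights, and 1 and 4 with the length trend removed. Among the guidance and Kirrel genes, DESeq2 called 1 higher (Sema4b) and edgeR without the filter 1 lower (Plxnb3); leaving out single libraries gave 0 in each direction. At an unadjusted p under 0.05, 9 of 57 members were higher, beside 978 of 15498 genes. With the length trend removed this was 4 of 57, beside 608 of 15498 genes. With a library left out, the fewest were 3 of 57 without pup replicate 2, beside 463 of 15446 genes. The most were 12 of 63 without control replicate 3, beside 771 of 16660 genes. In the lower direction there were 2 of 57 members, beside 723 of 15498 genes. There was 1 with library totals (beside 169 genes), the stricter filter (715), limma-voom (842), sample quality weights (970) or thinning (762). Without control replicate 1 there were 0 of 62, beside 467 of 16521 genes. Without control replicate 2 there were 2 of 63, beside 536 of 16489 genes. Leaving out any other library gave 1. The median log2 fold change of 0.53 was 0.89 with library totals, 0.21 with the length trend removed, and 0.44 (without pup replicate 2) to 0.71 (without control replicate 3) when a library was left out. Library totals moved the median of all genes to 0.31 and the share of unadjusted calls that were higher from 57.5% to 88.8%. The cause was not tested.

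Of 35 named members with a fold change, 27 kept their sign in all 17 alternatives. Slit1 (-0.14), Slit2 (-0.17), Ephb2 (-0.12) and Plxnb2 (-0.15) turned negative with the length trend removed, Sema4a (0.0433) and Unc5b (0.0801) turned positive with library totals, and with sample quality weights Sema4a was 0.14 and Efnb1 -0.27. With a library left out, Efnb1 ran from -0.41 (without pup replicate 1) to 0.61, Plxna3 from -0.27 (without pup replicate 2) to 1.05, Sema4a from -0.36 to 0.14 (without control replicate 1), Slit1 from -0.43 (without control replicate 1) to 0.72 and Unc5b from -0.63 to 0.088 (without pup replicate 1), where it was also 0.01 without control replicate 2.

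No label says that replicate numbers pair the libraries. After each group's mean was subtracted per gene, the deviations of same-numbered libraries correlated at -0.04, 0.18 and 0.07. Those of differently numbered libraries correlated at -0.26 to 0.14. With so few libraries this does not settle whether the numbers mark a pairing. With the replicate block, 0 of 57 members were lower at an unadjusted p under 0.05, beside 675 of 15498 genes. The median of the members was then 0.46. The 16 genes under the filter had at most 97 counts each over all libraries; edgeR without the filter fitted 72 of the 73 members.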
